A study of Homo sapiens with 46 samples.

Results

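The nuclear genes for the subunits of the respiratory chain and of ATP synthase were followed in DLD-1, an established cell line from a human colorectal adenocarcinoma, across 4 lines and 3 times of auxin treatment. Members were the protein-coding genes outside mitochondrial DNA whose symbols follow the naming of complex I (NDUFA, B, C, S or V with a number), complex III (UQCR), complex IV (COX4 to COX8) and ATP synthase (ATP5F, ATP5M or ATP5P). Of 264 genes in the count table whose symbols match, 180 pseudogenes and other gene types were left out, and 84 members remained among 62756 genes. By name they comprised 39 genes of complex I (NDUFA4 included), 9 of complex III, 17 of complex IV and 19 of ATP synthase. Complex II, cytochrome c and the assembly factors are not members and are counted separately.

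The parental line (WT, no tag) was compared with LA/C-AID, LB1-AID and LB2-AID, called LAC, LB1 and LB2 here. In each of these, 1 endogenous lamin carries an auxin-inducible degron, a tag that sends the protein to the proteasome when the plant hormone auxin is present. Lamins are the filament proteins under the inner nuclear membrane. Auxin was given at 1 mM from a DMSO stock, and cells of each line, the parental one included, were taken at 0, 16 and 96 h. This gave 12 groups and 46 libraries. Groups held 4 libraries, except LB1 at 0 h and LB2 at 96 h with 3 each. Neither DMSO treatment at 0 h nor the number of clones behind a tagged line is stated in the labels. A library came from 1 well of a culture plate, so p-values measure the spread between wells, which may be technical.

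The respiratory chain passes electrons from NADH and succinate to oxygen in the inner mitochondrial membrane, and ATP synthase uses the proton gradient that this builds. Complex I oxidises NADH, complex III passes electrons from ubiquinol to cytochrome c, and complex IV reduces oxygen. All but a few of their subunits are encoded in the nucleus, and the rest in mitochondrial DNA, so that both genomes supply each of these assemblies. Several subunits exist as isoforms that are used in muscle, lung or testis.

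Depth differed widely between libraries, and this touches many values below. Totals spanned 479446 to 37309421 counts, and 6 libraries had under 5000000, of which 5 were at 0 h. Among them, replicate 1 of LAC at 0 h, replicate 1 of LB2 at 0 h and replicate 3 of LB2 at 16 h stood apart from their groups in several members. Results that rest on them are given with and without them. Epithelial markers were expressed in every library, with EPCAM from 319.6 to 597.5 CPM. Intestinal markers were mixed. CDX2 ran from 58.0 to 247 CPM and CDH17 from 22.5 to 196, each with counts in every library. CDX1 (0 counts in 40 libraries), LGALS4 and VIL1 (medians of 0.32 and 1.25 CPM) were near or at 0. Markers of leukocytes (PTPRC), hepatocytes (ALB), muscle (MYH7) and fibroblasts (COL1A2) had medians of 0 CPM, while COL1A1 (fibroblasts), ACTA1 (muscle) and PECAM1 (endothelium) had medians of 1.26, 0.75 and 0.24, reaching 5.54, 2.65 and 1.23. Here CPM is counts per 1000000 after TMM scaling, which sets libraries to a common scale from the bulk of genes. The lamin genes give no check of degradation at RNA level, since the degron acts on protein. At 0 h LMNA averaged 736 CPM in parental and 434.7 in LAC libraries, LMNB1 147 in parental and 94.6 in LB1, and LMNB2 282 in parental and 142 in LB2.

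The members were mostly well expressed. In total, 78 of the 84 passed the filter on low counts and were tested, and 68 had a mean over 10 CPM, the mean being taken over the 12 group means. Their median level was 40.8 CPM, against 5.89 for all 21484 genes tested and 28.7 for the protein-coding ones. Exons were short, with a median of 2661.5 bases against 5242.5 for protein-coding genes tested, and the median GC content of 48.4% was close to the 49.7% of that set. Overlap with another gene was found for 53 members, on the same strand for 34 and on the opposite strand for 38, and whether counting used strand is not given in the sources used here. At least 1 pseudogene named after it was listed for 45 members. The 173 pseudogenes matching the pattern held 10620 counts over all libraries, against 3379211 for the members.

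**Figure D1:**
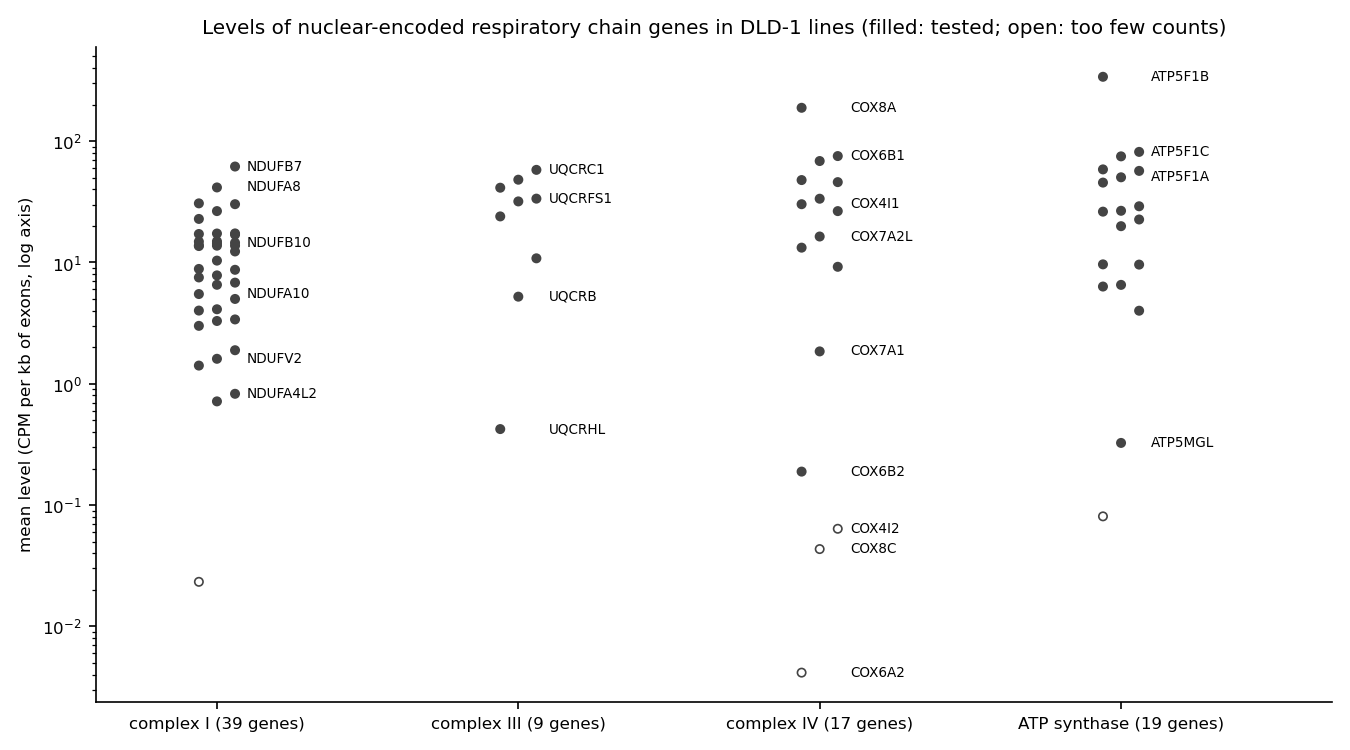
Mean level of each member (CPM per kilobase of exons, log axis, mean of 12 group means) in the 4 assemblies; 1 point is 1 gene, and open points are genes with too few counts to test. ATP5F1B stands highest at 340 CPM per kb, and the isoforms of muscle, lung and testis lie at the bottom of complex IV; COX7B2, with 0 counts, cannot be drawn.

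Per length, the catalytic core of ATP synthase and small subunits of complex IV led. ATP5F1B (ENSG00000110955.9, GRCh38 chromosome 12, 56638175 to 56645984, minus strand), the beta subunit that makes ATP, stood at 340 CPM per kb, and COX8A (ENSG00000176340.4, chromosome 11, 63974620 to 63976543, plus strand), a small membrane subunit of complex IV, at 189. ATP5F1C, the gamma subunit of the rotor, and COX6B1, which faces the space between the membranes, followed at 81.6 and 75.4 CPM per kb. In complex I the highest were NDUFB7 (61.8 CPM per kb), an accessory subunit of the membrane arm, and NDUFA8 (41.6). In complex III they were UQCRC1 (58.0 CPM per kb), a core protein, and UQCRH (48.1), the hinge protein beside cytochrome c1. These are means over groups with different libraries, and neighbours in this order were not compared by a test.

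Isoforms known from other tissues were nearly silent. COX7B2 had 0 counts in all 46 libraries, COX6A2, the muscle isoform of subunit 6A, had 2 counts in all, COX8C had 15 and COX4I2, the isoform known from lung, had 19. None of these could be tested. COX7A1, the heart and muscle isoform, averaged 1.08 CPM, and COX6B2, the testis isoform, 0.70, while their widespread partners COX7A2 and COX6B1 averaged 91.9 and 103 CPM. NDUFA4, named for complex I but known as a subunit of complex IV, averaged 79.1 CPM, and its paralogue NDUFA4L2, known as a hypoxia target, 2.32. UQCRHL, a near copy of UQCRH, averaged 0.92 CPM against 64.6 for UQCRH, and reads shared by this pair may be split between them. Readthrough genes were also near 0, with 14 counts in all for NDUFC2-KCTD14 and 129 for ATP5MF-PTCD1. COX7A2L, a factor that joins complexes III and IV, averaged 91.7 CPM and was among the most even members, its group means running from 83.9 to 104.5.

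A few members of the common set were low as well, and these overlap other genes. NDUFV2, an iron-sulfur subunit of complex I that every mitochondrion needs, averaged 4.35 CPM and overlaps NDUFV2-AS1 and other genes. NDUFA13 averaged 3.82 CPM and overlaps YJEFN3, and NDUFA7 averaged 1.00 CPM and overlaps RPS28. How the counting treated reads in such overlaps is not given in the sources used here, so these levels are uncertain. Group means of 28 members varied by less than 1.5 times over the 12 groups, and those of 20 by more than 2 times.

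Promoters are shown for 6 members that carry results below: NDUFB7, UQCRC1 and COX8A, which were lower together in LAC at 96 h, ATP5F1C and ATP5PB, which were higher together in LB2 at 0 h, and NDUFA10, higher in LB1. Sequences are RefSeq's (GRCh38.p14), from 120 bases before to 30 bases after RefSeq's transcription start, 5′ to 3′ on the gene's strand. Capitals mark matches to any of 3 motifs known from nuclear respiratory genes: CCGGAAG (the core bound by ETS factors such as GABPA), GCATGCG (part of the NRF1 site) and AAGATGG (the YY1 core), each searched on both strands.
NDUFA10, chr2:240025313-240025462, minus strand: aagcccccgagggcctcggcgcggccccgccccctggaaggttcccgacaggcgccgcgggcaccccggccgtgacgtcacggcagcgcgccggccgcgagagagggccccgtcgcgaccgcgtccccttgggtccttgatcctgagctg
NDUFB7, chr19:14572037-14572186, minus strand: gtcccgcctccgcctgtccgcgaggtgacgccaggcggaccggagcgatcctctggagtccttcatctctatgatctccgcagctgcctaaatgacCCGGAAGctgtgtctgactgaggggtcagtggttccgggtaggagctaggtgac
UQCRC1, chr3:48609617-48609766, minus strand: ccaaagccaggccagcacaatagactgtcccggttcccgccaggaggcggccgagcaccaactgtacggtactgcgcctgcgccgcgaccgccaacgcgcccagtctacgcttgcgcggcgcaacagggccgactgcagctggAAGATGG
COX8A, chr11:63974500-63974649, plus strand: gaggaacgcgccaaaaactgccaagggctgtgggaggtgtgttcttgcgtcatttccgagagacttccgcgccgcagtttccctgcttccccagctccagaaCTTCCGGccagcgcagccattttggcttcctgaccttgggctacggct
ATP5F1C, chr10:7788057-7788206, plus strand: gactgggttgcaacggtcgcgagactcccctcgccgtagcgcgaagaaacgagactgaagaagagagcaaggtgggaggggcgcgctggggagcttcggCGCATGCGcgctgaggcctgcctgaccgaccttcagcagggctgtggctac
ATP5PB, chr1:111449344-111449493, plus strand: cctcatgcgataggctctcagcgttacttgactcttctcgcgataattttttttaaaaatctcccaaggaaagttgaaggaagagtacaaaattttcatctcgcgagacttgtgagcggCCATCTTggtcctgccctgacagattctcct

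NDUFB7 and COX8A held the ETS core within 30 bases before the start, UQCRC1 the YY1 core just after it, ATP5PB the YY1 core at it and ATP5F1C overlapping NRF1 matches on both strands. NDUFA10 had no match in the window shown. Searched over 250 bases before to 50 after the start, the ETS core was in 19 of the 66 members with a promoter entry (28.8%), against 21.1% of 11060 tested protein-coding genes. The NRF1 motif was in 12 (18.2%, against 7.2%) and the YY1 core in 17 (25.8%, against 9.0%). At least 1 of the 3 motifs was in 38 members (57.6%), against 32.4%. Over all 27305 genes with an entry, the shares were 12.2%, 4.7% and 7.1% in the same order, and 21.5% for any. The ETS and YY1 motifs can overlap by the letters they share. A match describes letters and not binding.

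Summed over all members on the TMM scale, levels were higher in the tagged lines than in the parental line before auxin and close together after 96 h, and for LAC the first of these did not hold without that scaling. The parental libraries at 0 h summed to 5349, 4805, 5232 and 4941 CPM, LAC to 5573, 5771, 5671 and 5528, LB1 to 5401, 5822 and 5837, and LB2 to 5824, 6367, 6246 and 6125. All 11 libraries of the tagged lines at 0 h were above all 4 parental ones. After 96 h the sums lay close together, at 5283 ± 220 CPM in the parental line, 5129 ± 256 in LAC, 5381 ± 245 in LB1 (SD, n = 4 each) and 5135 ± 82.0 in LB2 (SD, n = 3). Relative to its own 0 h group, LB2 at 96 h was at 0.836 times with no overlap (5042 to 5193 against 5824 to 6367 CPM), and LAC at 0.91 times with no overlap (4829 to 5350 against 5528 to 5771). LB1 at 0.946 and the parental line at 1.04 times overlapped their 0 h libraries.

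These sums depend on the scale. As a share of all counts at 0 h, the members took 0.540% in the parental line (0.499 to 0.562), 0.527% in LAC (0.520 to 0.540), 0.590% in LB1 (0.564 to 0.605) and 0.624% in LB2 (0.555 to 0.669). On that scale LAC was below the parental mean and within its range, LB1 did not overlap it, and LB2 overlapped it at its lowest library. As a share of all counts, without TMM scaling, LAC at 96 h was at 0.99 of its 0 h mean and LB2 at 0.876, and both then overlapped their 0 h groups. No p-value is given for a sum over chosen genes. In bulk RNA, fewer cells of a kind and less RNA per cell cannot be told apart.

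**Figure D2:**
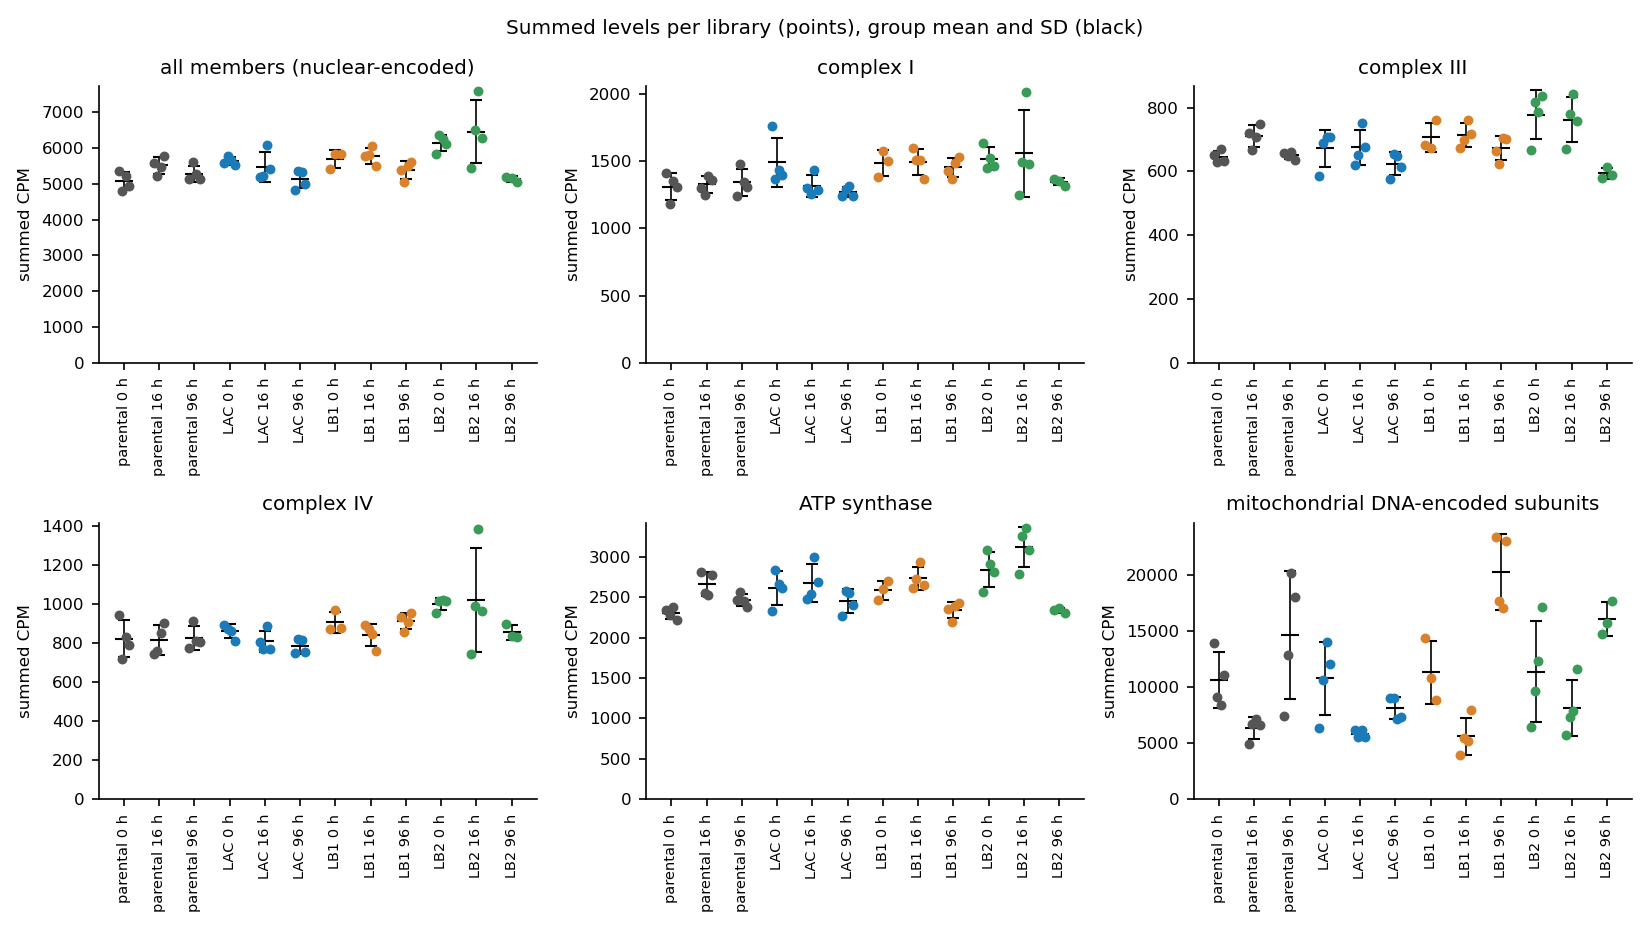
Summed CPM of all members, of each assembly and of the 13 subunits encoded in mitochondrial DNA (vertical axes from 0) in each library (points) by line and auxin time, with group mean and SD in black. The LB2 libraries at 96 h (5042 to 5193 CPM over all members) lie below those at 0 h (5824 to 6367), and the mitochondrial DNA-encoded sum is lowest at 16 h in each line.

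By assembly, the LB2 sums at 96 h were lower in each: complex III was at 0.764 times its 0 h mean, ATP synthase at 0.823, complex IV at 0.855 and complex I at 0.886, with no overlap in any of them. The fall was not particular to the members. The sum of cytosolic ribosomal proteins in LB2 at 96 h was at 0.834 times, also without overlap (36640 to 38670 against 43610 to 46130 CPM). In LAC at 96 h, with all libraries, only the complex I sum did not overlap, at 0.854 times. Replicate 1 at 0 h decided this. Without it complex I (1370 to 1432 against 1240 to 1314 CPM) still did not overlap. Neither then did complex III (687.8 to 708.4 against 577.3 to 655.4) or ATP synthase (2611 to 2841 against 2261 to 2577). Complex IV overlapped with and without it. Without overlap too were ATP synthase in LB1 at 96 h (0.906 times, 2197 to 2428 against 2459 to 2696 CPM) and ATP synthase in the parental line at 16 h (1.157 times, 2524 to 2806 against 2214 to 2379). The subunits encoded in mitochondrial DNA moved otherwise: their sum at 16 h was at 0.599, 0.542, 0.496 and 0.714 of the 0 h mean in the parental line, LAC, LB1 and LB2, while the nuclear-encoded sums were at 1.086, 0.972, 1.017 and 1.052. Only in LB2 did the mitochondrial DNA-encoded sums at 16 h overlap those at 0 h (5722 to 11670 against 6441 to 17200 CPM). At 96 h they were at 1.377, 0.752, 1.79 and 1.411 in the same order, without overlap in LB1 only. Both genomes' transcripts come from the same libraries, and the difference between them was not tested.

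Gene by gene, few members were called in any comparison. Over the 17 comparisons there were 34 calls (edgeR's quasi-likelihood test, Benjamini-Hochberg adjusted p under 0.05 over all genes) in 1326 tests of members (2.56%), in 22 of the 78 genes. Over all genes there were 17398 calls in 365228 tests (4.76%). Only 5 of these 34 calls held in all 8 alternative analyses and in every analysis that left out 1 library of the compared groups. They were NDUFA10 in LB1 at 0 h, NDUFB10 in LAC and in LB2 at 0 h, UQCRFS1 in LB2 at 0 h, and NDUFV2 in the parental line at 16 h. The first 4 are differences between lines before auxin.

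**Figure D3:**
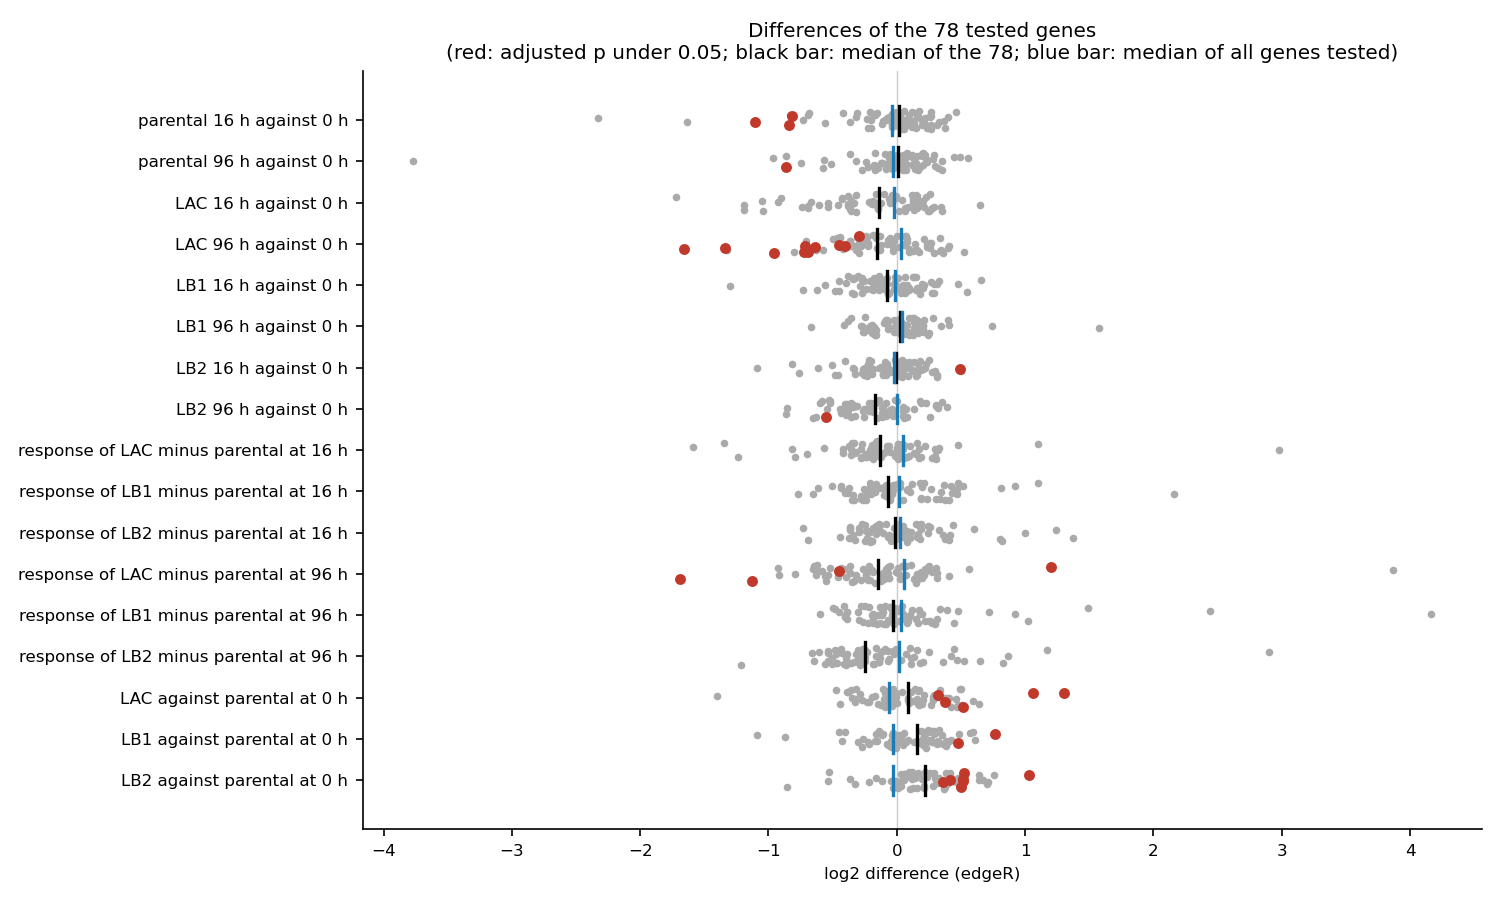
Log2 differences of the 78 tested members in each of the 17 comparisons (1 point per gene, red at an adjusted p under 0.05), with the median of the members (black) and of all genes tested (blue). The members' median lies below that of all genes in LAC and LB2 at 96 h (-0.16 and -0.17) and above it in LB2 against the parental line at 0 h (0.22).

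With auxin in the untagged parental line, 3 of the 78 tested members fell and none rose at 16 h, beside 9.01% of all genes called (4.78% lower). At 96 h 1 fell, beside 7.78% (3.84% lower). The members' median difference was 0.02 at 16 h and 0.01 at 96 h, against -0.04 and -0.03 over all genes. In LAC, 0 members passed at 16 h (21 at an unadjusted p under 0.05, and 6 by DESeq2, all lower), beside 1.78% of all genes. At 96 h in LAC 10 members fell and none rose, beside 15.4% of all genes called (8.64% lower). With library size alone in place of TMM the split was 3 higher and 5 lower. The median of the 78 was -0.16 against 0.03 over all genes, and 50 of 78 were below 0.

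In LB1, 0 members passed at either time, beside 1.5% of genes called at 16 h and 3.17% at 96 h. At an unadjusted p under 0.05 there were 6 and 7, and DESeq2 called 1 and 2. In LB2, 1 member rose at 16 h, beside 1.81% of genes called (1.43% higher), and 1 fell at 96 h, beside 3.55% (1.6% lower). The LB2 median at 96 h was -0.17 against 0.00 over all genes, and 60 of 78 members were below 0, against 50.3% of all genes. DESeq2 called 7 members in LB2 at 96 h, 6 of them lower, and library size alone gave 1 higher and 1 lower.

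The response of each tagged line was also compared with that of the parental line, which subtracts the change seen without a tag. Whether the lines respond alike to auxin, DMSO or time in culture was not tested. At 16 h no member's response differed in LAC, LB1 or LB2 by edgeR or DESeq2, beside 0.116%, 0.0279% and 0.00465% of all genes called, with 6, 3 and 3 members at an unadjusted p under 0.05. At 96 h the response differed for 4 members in LAC (1 higher, 3 lower), beside 7.4% of all genes (3.1% higher, 4.3% lower). The count was 0 without parental replicate 2 at 96 h and 7 without LAC replicate 2 at 0 h, and RLE scaling or library size alone left 1 higher and 0 lower. For LB1 and LB2 it differed for 0, beside 1.04% and 0.368%, with 8 and 14 at an unadjusted p under 0.05 and 1 by DESeq2 in each. The LB2 median at 96 h was -0.25 against 0.01 over all genes, with 58 of 78 below 0. All these comparisons share the parental libraries.

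Before auxin, the tagged lines differed from the parental line only upward among called members. In LAC 5 were higher, beside 15.8% of all genes called (8.71% higher). In LB1 2 were higher, beside 4.05% (1.62% higher), and in LB2 7 were higher, beside 8.21% (3.91% higher). Members' medians were 0.09, 0.16 and 0.22, against -0.06, -0.03 and -0.03 over all genes, and 66 of 78 members were above 0 in LB2. The LAC split depended on scaling: RLE scaling gave 3 higher and 2 lower, and library size alone 2 higher and 4 lower. These 3 comparisons use the same 4 parental libraries. Single libraries moved the counts: that of LAC was 2 without parental replicate 4 and 11 without LAC replicate 2, and that of LB2 was 2 without parental replicate 2 and 20 without LB2 replicate 1.

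Complex I held the clearest difference between lines. NDUFA10 (ENSG00000130414.13, chromosome 2, 239892450 to 240025743, minus strand, overlapping MIR4786) encodes an accessory subunit of the nucleoside kinase family. At 0 h it stood at 82.9, 74.97, 83.9 and 86.6 CPM in the parental line and at 136, 144.5 and 139.6 in LB1. The groups were far apart, with a log2 difference of 0.77 ± 0.11 (standard error) and an edgeR adjusted p of 1.98e-06. The level stayed high in LB1 with auxin, at 142 to 156 CPM at 16 h and 154.5 to 177 at 96 h, so that all 11 LB1 libraries lay above the other 35, which ran from 69.5 to 114.7. LAC was slightly higher than the parental line at 0 h (0.32 ± 0.10, edgeR adjusted p 0.0249), with 88.6, 99.2, 107 and 114.7 CPM.

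The genes around NDUFA10 were higher in LB1 as well. Of 35 other tested protein-coding genes with a mean of at least 1 CPM that start within 2000000 bases of it, 33 were above 0 in LB1 against the parental line at 0 h, 13 of them called, and 0 called lower, with a median of 0.53. In LAC the median of these neighbours was 0.21, and in LB2 -0.15 with 24 of 35 below 0. Around the 76 tested members not called in LB1, the medians of the neighbours ran from -0.84 to 0.29. The neighbour count was chosen after the values were seen. Whether that stretch of chromosome 2 differs between the lines at the DNA level was not tested.

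NDUFB10 (ENSG00000140990.15, chromosome 16, 1959538 to 1961975, plus strand, no overlap), an accessory subunit of the membrane arm, was low in the parental line before auxin. Its 4 libraries held 9.00, 8.07, 10.7 and 7.96 CPM, LAC held 25.9, 12.6, 21.2 and 17.7, and LB2 24.9, 13.6, 19.0 and 18.6. Neither tagged group overlapped the parental one, with log2 differences of 1.06 ± 0.25 (edgeR adjusted p 0.00261) and 1.03 ± 0.26 (edgeR adjusted p 0.0067). LB1 at 0 h, with 12.0, 11.3 and 16.0 CPM, was also above the parental libraries and was not called. Around NDUFB10, 93 of 117 neighbours were above 0 in LAC (34 called higher and 2 lower, median 0.36) and 63 of 117 in LB2 (5 higher and 2 lower, median 0.03). Both medians lay within the range around tested members not called, -0.38 to 0.57 for 73 in LAC and -0.44 to 0.16 for 71 in LB2. With auxin, parental libraries reached 8.27 to 16.7 CPM at 16 h and 10.2 to 17.8 at 96 h, while LAC at 96 h was at 9.04 to 15.2. The response of LAC therefore differed from the parental one at 96 h, by -1.13 ± 0.34 (edgeR adjusted p 0.035), which RLE scaling, library size alone, the trend removal and the exclusion of shallow libraries each took past the threshold.

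NDUFV2 (ENSG00000178127.13, chromosome 18, 9102630 to 9134345, plus strand), an iron-sulfur subunit of the NADH-binding module, fell with auxin in the parental line. It went from 6.32, 6.18, 4.30 and 4.82 CPM at 0 h to 3.00, 3.44, 1.39 and 1.62 at 16 h and 2.69, 3.09, 3.21 and 3.12 at 96 h. Neither auxin group overlapped the 0 h group, with log2 differences of -1.10 ± 0.26 (edgeR adjusted p 0.00493) and -0.87 ± 0.26 (edgeR adjusted p 0.0287). In LAC the level was 3.54 to 5.23 CPM at 0 h and 3.81 to 5.92 at 96 h, and the response differed from the parental one by 1.21 ± 0.36 (edgeR adjusted p 0.0294). This difference was at an adjusted p of 0.0504 with the GC and length trend removed and 0.0862 without a low-count filter. The gene overlaps an antisense gene, and its level is low.

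NDUFA1 and NDUFA13, accessory subunits of complex I, were the other members that fell in the parental line at 16 h. NDUFA1 went from 14.2, 11.9, 13.1 and 17.4 to 6.63, 8.44, 10.49 and 6.17 CPM (-0.82 ± 0.25, edgeR adjusted p 0.0349). NDUFA13 went from 6.81, 4.78, 5.91 and 4.82 to 3.63, 2.57, 3.55 and 2.94 CPM (-0.84 ± 0.28, edgeR adjusted p 0.0457). Both genes' groups did not overlap. The NDUFA13 call was lost without any 1 of the 8 libraries, and that of NDUFA1 without any 1 of 6.

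Of the 10 members that fell in LAC at 96 h, 6 belong to complex I, which holds 38 of the 78 tested members. They include the NADH-binding flavoprotein NDUFV1, the large iron-sulfur subunit NDUFS1, and the iron-sulfur subunits NDUFS7 and NDUFS8 next to the quinone site, beside NDUFA1 and NDUFB7. NDUFV1 stood at 185, 72.7, 114 and 109 CPM at 0 h and at 80.8, 64.5, 73.1 and 75.7 at 96 h (-0.69 ± 0.20, edgeR adjusted p 0.013). The groups overlapped, and the highest value, 185, was replicate 1 at 0 h. NDUFS1 stood at 228.5, 176, 177.5 and 162 CPM at 0 h and at 157, 148, 144.5 and 154 at 96 h (-0.30 ± 0.10, edgeR adjusted p 0.0345). Its groups did not overlap, with replicate 1 again the highest. NDUFB7 stood at 84.0, 23.3, 33.1 and 34.6 CPM at 0 h and at 20.6, 21.3, 23.3 and 20.9 at 96 h (-0.95 ± 0.32, edgeR adjusted p 0.0324), where the groups met at 23.3 CPM and replicate 1 was far above the rest.

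Replicate 1 of LAC at 0 h, with 3318819 counts, bears on the whole set. Without it, 1 member was called in LAC at 96 h in place of 10, and that 1 was not among the 10. The 10 differences then ran from -1.28 to -0.17, all still below 0, with edgeR adjusted p from 0.0784 to 0.366. Without replicate 2 of LAC at 0 h the count was 19. It was 4 when libraries under 5000000 counts were left out and 1 when only the compared groups were fitted. How depth or RNA quality of that library entered its levels was not tested.

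In LB2 at 0 h, NDUFA8 and NDUFS4, accessory subunits of complex I, were above the parental line by 0.52 ± 0.17 and 0.52 ± 0.16 (edgeR adjusted p 0.0395 and 0.0325). Their calls held in 5 and 4 of 8 alternatives, and were both lost with library size alone. With 1 library left out they held in 3 and 2 of 8 fits. NDUFA6, an accessory subunit of the LYR-motif family, was higher in LAC by 0.52 ± 0.17 (edgeR adjusted p 0.0311), and lost the call under 6 of 8 alternatives. NDUFS6, a member on the short arm of chromosome 5, was at -0.45 in LB1 (edgeR adjusted p 0.667), and its 18 neighbours had a median of -0.84, with 11 lower and 1 higher.

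**Figure D4:**
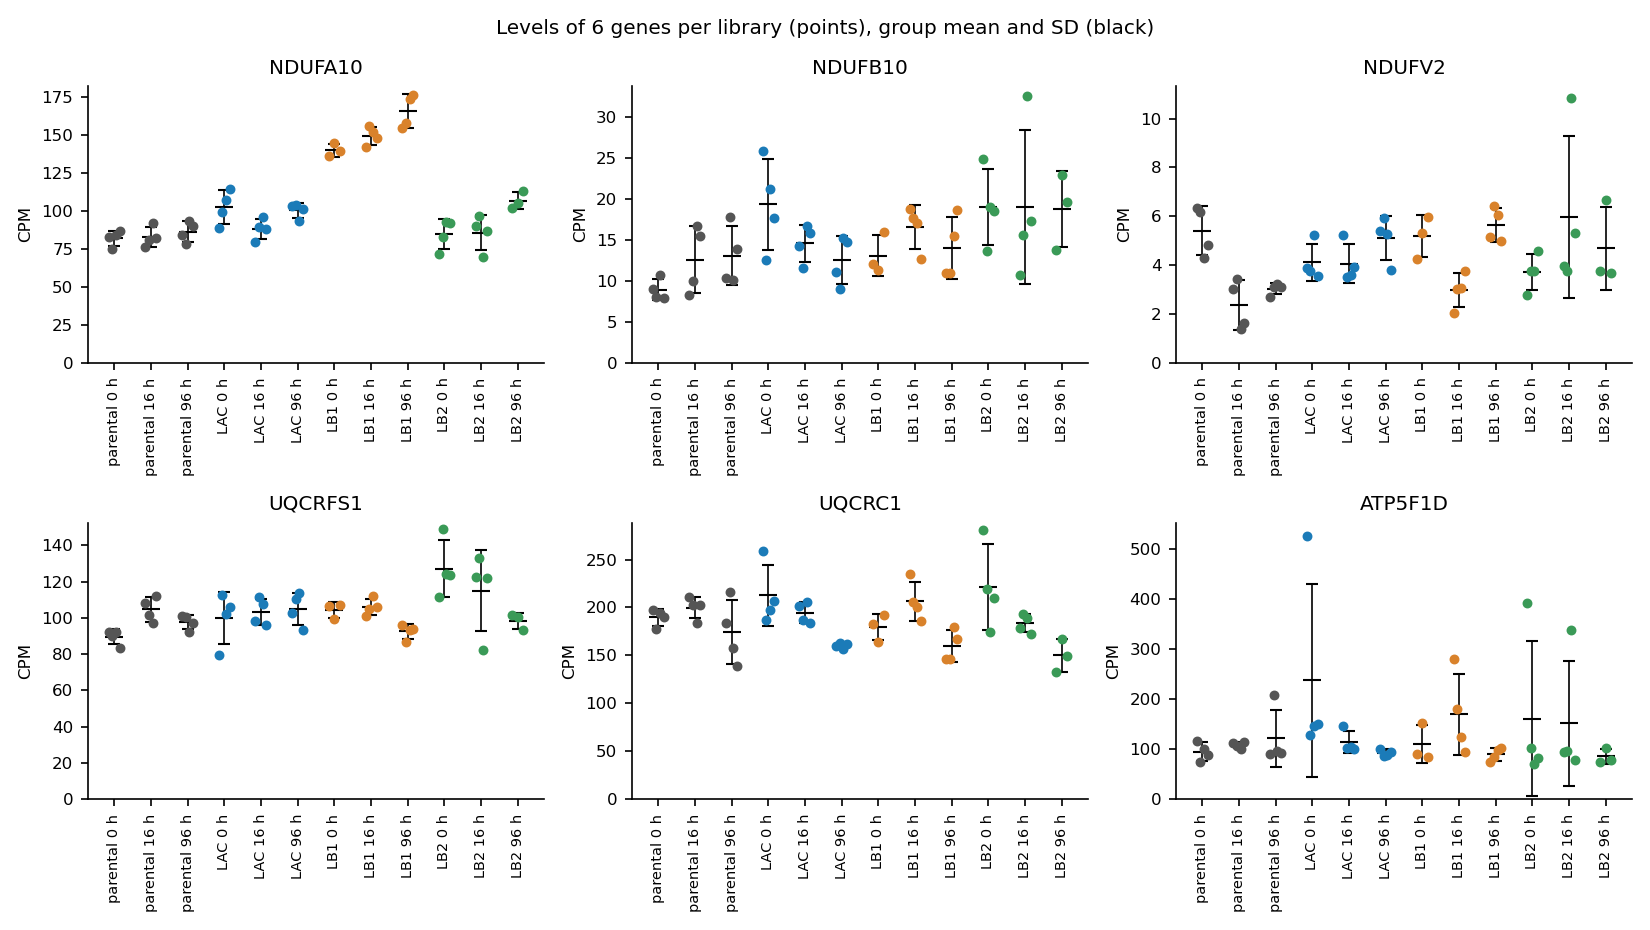
CPM of 6 members in each library (points) by line and auxin time, with group mean and SD in black and axes from 0. NDUFA10 lies between 136 and 177 CPM in the LB1 libraries and between 69.5 and 114.7 in all others, and ATP5F1D reaches 527 CPM in 1 LAC library at 0 h.

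In complex III, the Rieske iron-sulfur protein UQCRFS1 (ENSG00000169021.6, chromosome 19, 29205320 to 29213151, minus strand, no overlap) was higher in LB2 before auxin. The parental libraries at 0 h held 92.4, 89.9, 92.4 and 83.7 CPM and the LB2 ones 111.8, 149, 124 and 124. The groups did not overlap (0.51 ± 0.11, edgeR adjusted p 0.00126). After 96 h of auxin LB2 stood at 101, 100.3 and 93.1 CPM, near the 92.4 to 101 of the parental line, a change from 0 h of -0.38 ± 0.12 that did not pass (edgeR adjusted p 0.0565). Of its 5 neighbours within 2000000 bases, all were above 0 in LB2 at 0 h, 0 of them called, with a median of 0.27. The other tagged lines were alike, with 5 above 0 in LAC (1 called higher, median 0.25) and 4 in LB1 (0 called, median 0.25). The response of UQCRFS1 in LB2 at 96 h minus the parental one was -0.50 ± 0.16 (edgeR adjusted p 0.151).

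UQCRC1 (ENSG00000010256.11, chromosome 3, 48599002 to 48610976, minus strand, no overlap), a core protein of complex III, fell in both LAC and LB2 at 96 h. In LB2 it went from 281, 219, 174 and 210 CPM to 133, 167.5 and 149 (-0.55 ± 0.13, edgeR adjusted p 0.00926). In LAC it went from 259, 187, 198 and 207 to 160, 162, 156.5 and 162 (-0.41 ± 0.12, edgeR adjusted p 0.0173). In neither line did the groups overlap. In both, replicate 1 at 0 h, a shallow library, was the highest. Without the libraries under 5000000 counts the LB2 change was -0.37 (edgeR adjusted p 0.0867), and without replicate 1 at 0 h the LAC change was -0.29 (edgeR adjusted p 0.136). The parental libraries at 96 h spread from 139 to 216 CPM, against 177 to 197 at 0 h.

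UQCRB (ENSG00000156467.10, chromosome 8, 96222947 to 96235546, minus strand), a ubiquinone-binding subunit, was higher in LB1 than in the parental line at 0 h. LB1 held 67.4, 69.6 and 82.0 CPM and the parental line 58.6, 46.0, 50.3 and 55.7, without overlap (0.48 ± 0.13, edgeR adjusted p 0.0201). Of its 22 neighbours, 21 were above 0 in LB1, 1 of them called higher, with a median of 0.28. With auxin it stood at 83.0 to 94.8 CPM in LB1 at 16 h and at 65.9 to 78.9 at 96 h. In LB2 it rose at 16 h, from 41.5, 48.8, 48.1 and 54.9 to 54.2, 61.9, 93.4 and 78.6 CPM (0.49 ± 0.12, edgeR adjusted p 0.0266), with a small overlap and the highest value in the library with the fewest counts. That call held in 1 of the 8 alternatives, the replicate block. UQCRH was at -0.60 ± 0.20 in LB2 at 96 h (edgeR adjusted p 0.0865). UQCRHL fell in LAC at 96 h (-1.66 ± 0.58, edgeR adjusted p 0.0448) from group means of 1.33 to 0.35 CPM, a level at which few counts decide.

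Complex IV held a single gene with calls. COX8A was higher in LAC than in the parental line at 0 h, with 156, 123, 110 and 106 CPM against 107, 92.1, 83.4 and 97.2 (0.38 ± 0.13, edgeR adjusted p 0.0371). The groups overlapped slightly, the lowest LAC library being at 106 CPM and the highest parental one at 107. It then fell in LAC to 86.9, 100.3, 85.6 and 87.6 at 96 h (-0.45 ± 0.13, edgeR adjusted p 0.0112), without overlap. The baseline difference lost its call under 7 of 8 alternatives. The complex IV sum in LB2 at 0 h, 955, 1014, 1023 and 1016 CPM, was above the parental 946, 721, 832 and 790, while 0 of 13 tested members passed on their own. COX6B1 was at 0.48 ± 0.17 in that comparison (edgeR adjusted p 0.078).

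In LB2 before auxin, 3 of 18 tested ATP synthase genes were called higher than in the parental line. ATP5F1C (ENSG00000165629.20, chromosome 10, 7788147 to 7807815, plus strand, no overlap) stood at 141, 283, 241.5 and 225 CPM in LB2 and at 175, 157, 156 and 144 in the parental line (0.50 ± 0.16, edgeR adjusted p 0.0395). The lowest LB2 value was its shallow replicate 1, which overlapped the parental range, and without libraries under 5000000 counts the difference was 0.69 (edgeR adjusted p 0.000862). The ATP5F1C call was lost with library size alone and with the compared groups alone. It held in 2 of 8 fits that left out 1 library. ATP5PB, the peripheral stalk subunit, and ATP5MC1, of the membrane ring, were higher by 0.42 ± 0.13 and 0.36 ± 0.11 (edgeR adjusted p 0.0324 and 0.03). Their calls held in 5 and 4 of 8 alternatives, and were both lost with library size alone. With 1 library left out they held in 2 and 3 of 8 fits. Of 18 tested genes of ATP synthase, 17 were above 0 in this comparison, with a median of 0.33. Over all genes the median was -0.03, with 52.5% below 0. ATP5F1B, the member with the highest level, was at -0.41 ± 0.13 in LB1 and -0.39 ± 0.13 in LB2 at 96 h (edgeR adjusted p 0.063 and 0.0739).

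ATP5F1D (ENSG00000099624.8, chromosome 19, 1241746 to 1244825, plus strand, no overlap), the delta subunit of the central stalk, had single libraries far above the rest of their groups. In LAC at 0 h it stood at 527, 128, 146 and 149 CPM, against 117, 74.3, 101 and 88.2 in the parental line (1.30 ± 0.40, edgeR adjusted p 0.0188) and 101, 85.9, 88.8 and 94.6 in LAC at 96 h (-1.34 ± 0.39, edgeR adjusted p 0.0148). The LAC groups at 0 and 96 h did not overlap with or without the library at 527 CPM. Without that library both differences lost their calls, at 0.60 (edgeR adjusted p 0.263) and -0.59 (edgeR adjusted p 0.332). Similar single high values occurred in LB2 at 0 h (391.9 CPM against 69.8 to 101), LB2 at 16 h (339 against 78.1 to 96.4) and the parental line at 96 h (207 against 91.1 to 95.8). The libraries at 527, 391.9 and 339 CPM held 3318819, 1894447 and 479446 counts. The one at 207 CPM held 10494963, and replicate 4 of the parental line at 0 h, at 88.2 CPM, held 3770140. A link with depth was not tested. ATP5F1D has the highest GC content of all members, 67.6%.

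Differences of members followed GC content in several comparisons. In LAC at 96 h, members rich in GC were lower and those poor in GC were not, with a Spearman correlation over the 78 genes of -0.68, against -0.64 over the 9663 genes above 10 CPM. At 16 h it was -0.67, against -0.70, and in LAC against the parental line at 0 h 0.45, against 0.46. In LB2 it was -0.55 at 16 h, against -0.47, and -0.19 at 96 h, against -0.20, and in LB1 against the parental line at 0 h -0.37, against -0.21. Genes share the libraries, so these values describe the libraries and carry no p. When each library's trend on GC content and length was removed, 4 members were lower in LAC at 96 h, 2 of them among the 10. In LB2 at 96 h 7 were then lower, and in LB2 at 0 h 16 were higher, with medians of -0.18 and 0.23. Which part of the LAC differences comes from the libraries' GC trend was not tested further.

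**Figure D5:**
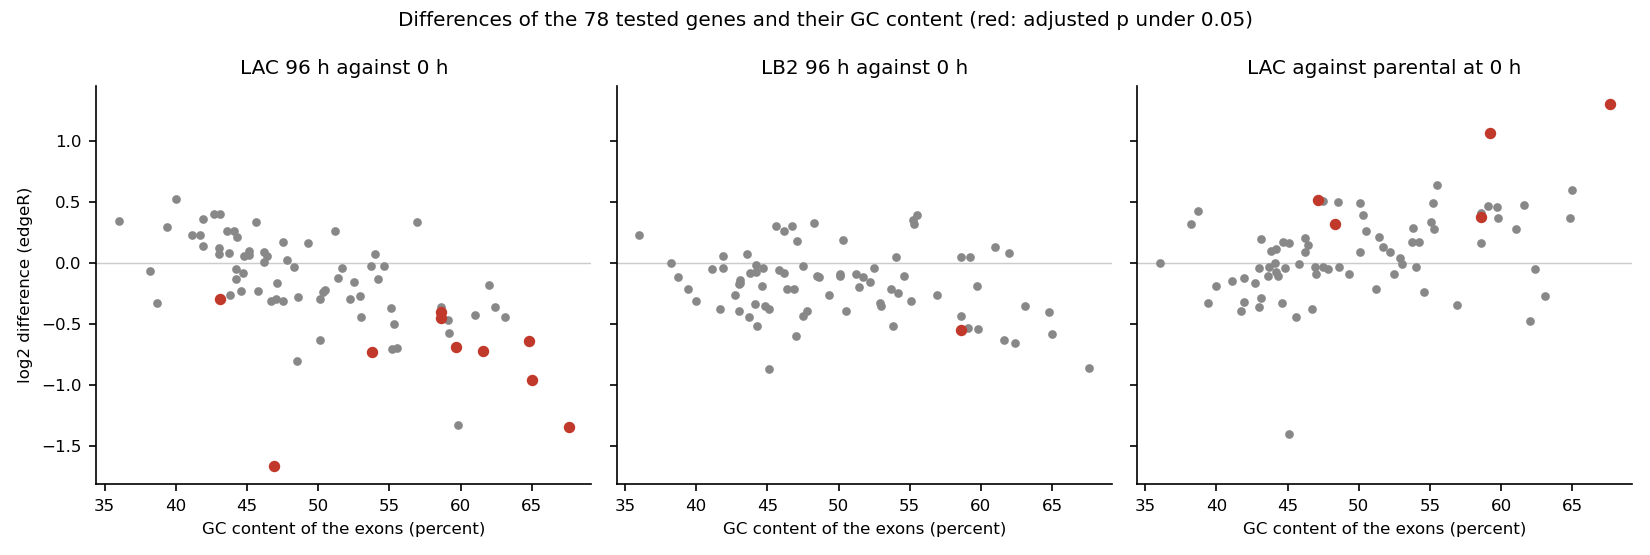
Log2 difference (vertical axis) against GC content of the exons in percent (horizontal axis) for the 78 tested members in 3 comparisons, red at an adjusted p under 0.05. In LAC at 96 h the points slope down (Spearman -0.68), in LB2 at 96 h less so (-0.19), and in LAC against the parental line at 0 h they slope up (0.45).

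Other genes of the pathway were counted in the same fit. Of 6 genes for complex II, cytochrome c and cytochrome c1, SDHB and SDHD were higher in LB2 at 0 h (0.43 and 0.55, edgeR adjusted p 0.00731 and 0.0483), and SDHA, the flavoprotein of complex II, was lower in LB1 (-0.95, edgeR adjusted p 0.000358). In LAC, CYC1, the cytochrome c1 of complex III that the naming of members leaves out, was higher at 0 h (0.46, edgeR adjusted p 0.0143). At 96 h CYC1 fell (-0.38) and SDHD rose (0.60) in LAC (edgeR adjusted p 0.0395 and 0.016). SDHA ran from 7.29 to 17.1 CPM in the 11 LB1 libraries and from 14.9 to 35.5 in the other 35. Its 18 neighbours on chromosome 5 within 2000000 bases had a median of -0.81 in LB1, with 10 lower and 1 higher. For the lists that follow, the shares of all genes called higher at 0 h were 8.71%, 1.62% and 3.91% in LAC, LB1 and LB2. Of 45 assembly factors, 7, 2 and 10 were higher in these lines at 0 h and 0 lower, and in LAC at 96 h 5 rose and 6 fell, beside 15.4% of all genes called. Mitochondrial ribosomal proteins were higher for 15, 1 and 22 of 77 at 0 h and lower for 1, 1 and 0. Cytosolic ribosomal proteins were higher for 23, 3 and 26 of 81, with 0 lower. Their medians in LB2 were 0.43 and 0.44, against 0.22 for the respiratory chain members.

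Glycolytic genes, 19 in all, were higher for 9 in LAC at 0 h and lower for 8 in LAC at 96 h, beside 8.71% of all genes higher and 8.64% lower. In LB2 1 was lower at 0 h, beside 8.21% of all genes called (3.91% higher), and 3 were lower at 96 h, beside 3.55% (1.6% lower). The 17 tested regulators covered factors of nuclear respiratory genes and of mitochondrial DNA transcription, such as TFAM, TFB2M and POLRMT. In the parental line 4 of them rose at 16 h and 7 at 96 h, with 0 lower. The shares of all genes called, in either direction, were 9.01% and 7.78%, which include the 4.78% and 3.84% of all genes that were lower. MYC, PPARGC1B and NRIP1 were called at both times, PPARGC1A at 16 h only, and GABPB2, TFB2M, PPRC1 and HCFC1 at 96 h only. MYC and NRIP1 also rose in LB2 at both times and in LB1 at 96 h. Members had 0 rises in the parental line at either time. PPARGC1A, a coactivator of mitochondrial gene expression, was higher in LB1 at 0 h (edgeR adjusted p 8.74e-07). It ran from 0.66 to 4.10 CPM in the LB1 libraries and from 0 to 1.00 in all others, with most parental libraries at 0 h without a count, so no fold is given. In LB1 the members' median at 0 h was 0.16, with 2 of 78 called.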

How the data were processed

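RNA of 46 wells of DLD-1 cells was sequenced as stranded, ribosomal RNA-depleted total RNA, per the labels' protocols. The authors deposited raw counts per gene, made with featureCounts 1.6.4 in an nf-core/rnaseq 1.4.2 environment, per the file headers. The submitters' processing notes also list STAR 2.7.10a, SAMtools 1.10, deepTools 3.4.5, DESeq2 1.40.2 and GRCh38. The annotation release, strand setting and treatment of multimapping reads are not given in the sources used here, and 1 gene whose row was broken over lines was left out.

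Groups came from the labels. Counts were fitted with edgeR 4.0.16 (R 4.3.3, limma 3.58.1): TMM scaling, filterByExpr by group, all 46 libraries, 12 group coefficients, quasi-likelihood test, two-sided, Benjamini-Hochberg adjustment over 21484 genes, called at 0.05, for 17 comparisons. The script was tested on simulated counts. Gene types and positions came from GENCODE 29 and promoter sequences from RefSeq. Totals spanned 479446 to 37309421 counts, so that 3 counts, what a count of 0 allows, were 6.26 CPM in the shallowest library and 0.0804 in the deepest, for counting error only. All 66 replicate pairs differed by more than sampling noise (chi-square at least 3.98 per degree of freedom).

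Alternatives were RLE scaling, library size alone, no low-count filter, DESeq2 1.42.0, the compared groups alone, a replicate block, removal of each library's trend on GC content and length (splines of 5 degrees of freedom), no libraries under 5000000 counts, and leaving out each library. Members named were, by rule, the 2 highest per length in each assembly, isoforms and readthrough genes, and the called members with the largest change in each direction (the 2 largest at 96 h against 0 h). Other members and the neighbour counts were chosen after their values were seen. The members and lists were chosen with earlier results of these data known.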

Additional observations from a re-analysis of the deposited data

Results flagged for a closer look

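In groups of 4, a library was taken to stand apart when its gap to the nearest other exceeded 0.829 of the group's range, which chance alone does in about 1 of 20 groups. This was met by 12 of 240 groups of values (5.0%). ATP5F1D accounted for 5 of them, with 527.2 CPM in replicate 1 of LAC at 0 h (the others at 128.3 to 149.4), 391.9 in replicate 1 of LB2 at 0 h (69.8 to 101.4), 338.9 in replicate 3 of LB2 at 16 h (78.1 to 96.4), 207.3 in replicate 2 of the parental line at 96 h (91.1 to 95.8) and 146.1 in replicate 1 of LAC at 16 h (the others at up to 104.6). Replicate 1 of LAC at 0 h was also apart in the complex I sum, at 1762 CPM (1370 to 1432), and in the complex III sum, at 586.3 (687.8 to 708.4). Replicate 1 of LB2 at 0 h was low in the complex IV sum, at 954.9 CPM (1014 to 1023). Replicate 3 of LB2 at 16 h, the library with the fewest counts, was high in UQCRHL, at 2.172 CPM (0.745 to 0.914). COX6B1 was at 107.7 CPM in replicate 4 of the parental line at 16 h (89.6 to 91.3), COX8A at 100.3 in replicate 2 of LAC at 96 h (85.6 to 87.6) and COX6B2 at 0.492 in replicate 4 of LAC at 16 h (0.275 to 0.309).

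The response to 96 h of auxin differed between LAC and the parental line by edgeR's interaction test for NDUFV2 (1.21), NDUFS1 (-0.45), NDUFB10 (-1.13) and ATP5F1D (-1.69, log2 difference of responses).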

How the results depend on the processing

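No called member changed direction under the alternatives run, and 5 of the 34 calls of single members held under all 8 alternatives and every library left out. Counts of called members moved more. With RLE scaling they were 5 in the parental line at 16 h (3 in the main analysis), 1 in LAC at 16 h (0), 1 in LB1 at 96 h (0), 0 in LB2 at 16 h (1), 3 in LB2 at 96 h (1), 1 for the LAC response at 96 h (4) and 1 for the LB1 response at 96 h (0). With library size alone they were 5 in the parental line at 16 h, 0 in LB2 at 16 h, 2 in LB2 at 96 h, 1 for the LAC and 1 for the LB1 response at 96 h, and 2 in LB2 at 0 h (7). This scaling moved the median of all genes by up to 0.27 (log2), for the LAC response at 96 h, and split the LAC calls at 96 h into 3 higher and 5 lower.

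Without a low-count filter they were 0 in the parental line at 96 h (1), 2 in LAC and 1 in LB1 at 16 h, 0 in LB2 at 16 h, 1 for the LAC response at 16 h (0) and 1 for the LB2 response at 96 h (0). DESeq2 gave 5 and 2 in the parental line at 16 and 96 h, 6 in LAC at 16 h, 1 and 2 in LB1, 0 and 7 in LB2, 1 each for the LB1 and LB2 responses at 96 h, and 12 in LB2 at 0 h. With the GC and length trend removed they were 4 in the parental line at 96 h, 1 and 4 in LAC (0 and 10), 2 and 2 in LB1, 0 and 7 in LB2, 3 and 2 for the LB1 and LB2 responses at 96 h, and 10 and 16 in LAC and LB2 at 0 h (5 and 7). Without libraries under 5000000 counts they were 4 in the parental line and 4 in LAC at 96 h, 1 and 1 in LB1, 0 and 6 in LB2, 2, 1 and 1 for the LAC, LB1 and LB2 responses at 96 h, and 14 in LB2 at 0 h. With the compared groups alone they were 7 and 2 in the parental line, 1 in LAC and 1 in LB1 at 96 h, 0 and 0 in LB2, 1 for the LB1 response at 96 h, and 1, 4 and 2 in LAC, LB1 and LB2 at 0 h. The cause of these shifts was not tested.

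Replicate numbers did not pair the samples (median correlation of deviations 0.01 for the same number and 0.001 for different numbers). A replicate block moved 1 count past 1.5 times, that of LB2 at 96 h, from 1 to 3.

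The summed level relative to 0 h was 1.01 with RLE scaling and 1.0 with library size alone in the parental line at 16 h (1.086), and with library size alone 0.972 in the parental line (1.04), 0.99 in LAC (0.91) and 0.876 in LB2 (0.836) at 96 h and 0.944 in LB1 at 16 h (1.017).

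Leaving out 1 library gave 1 to 5 and 0 to 2 called members in the parental line at 16 and 96 h, 0 to 10 and 1 to 19 in LAC, 0 and 0 in LB1, 0 to 1 and 0 to 3 in LB2, 0 for the responses at 16 h, 0 to 7, 0 to 1 and 0 for those of LAC, LB1 and LB2 at 96 h, and 2 to 11, 1 to 3 and 2 to 20 in LAC, LB1 and LB2 at 0 h. The sums, in an alternative chosen after seeing the data, ran from 1.066 to 1.105 and 1.019 to 1.058 in the parental line, 0.936 to 0.988 and 0.897 to 0.928 in LAC, 0.992 to 1.034 and 0.923 to 0.966 in LB1, and 0.99 to 1.107 and 0.822 to 0.847 in LB2. Depth limits the 0 h groups most, since they hold 5 of the 6 libraries under 5000000 counts.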
